A study of Mus musculus with 8 samples.

Results

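The mouse *Hox* gene clusters were examined in maps of accessible chromatin from 2 related mammary epithelial cell lines. Members were all protein-coding genes of the GENCODE annotation named *Hoxa*, *Hoxb*, *Hoxc* or *Hoxd* with a number, which gave 39 of 21938 protein-coding genes, together with the FAIRE peaks within 20 kb of the span from the first to the last gene of each cluster. Of 129466 peaks in the 8 libraries, 36 lay in these 4 windows, and they merged into 11 of the 37230 regions found when peaks of all libraries that overlapped by 1 bp or more were joined. The measurement was FAIRE-seq, in which DNA fragments not held by crosslinked protein are recovered and sequenced, and the values were 1 list of called peaks per library.

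EpH4 is a mouse mammary gland epithelial line to which no active H-Ras was added, grown in medium with 10% serum. EpRas is its derivative that carries active H-Ras, grown with 4% serum, so line, Ras and serum cannot be told apart. Each line was left untreated or was given TGF-β3 at 1 ng/ml, and cells of either kind were taken at 8 days. Each of these 4 groups had a pair of replicate libraries. The methods of the study describe them as biological replicates.

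*Hox* genes encode homeodomain transcription factors that give cells their position along the body axis. In mammals they lie in 4 clusters made by duplication, and genes at the same place in different clusters are paralogs that carry the same number. Low numbers lie at the 3′ end of a cluster and act towards the head, and high numbers lie at the 5′ end and act towards the tail. The clusters are textbook targets of Polycomb repression, of activation by trithorax proteins, and of the insulator protein CTCF, which divides them into segments. Some *Hox* genes act in the adult mammary gland.

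The libraries held between 10821 and 27337 peaks, and read depth was unknown. A site without a peak may therefore have missed the authors' threshold. Peaks lay within 2 kb of a start site in 1 or more libraries for 7 of 10 epithelial marker genes, 3 of 9 mesenchymal ones and 0 of 4 each for blood and endothelium, against 42.5% of all protein-coding genes. *Cdh1*, which encodes E-cadherin, had a promoter peak in 4 of 4 EpH4 and 0 of 4 EpRas libraries, and *Krt14*, a basal keratin gene, had one in all 8. The epithelial genes *Krt5*, *Epcam* and *Ocln* had one in no library, and the mesenchymal gene *Fn1* had one in 7 of 8.

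The windows spanned chr6:52135590-52280880 for *Hoxa* with 11 genes, chr11:96174316-96388256 for *Hoxb* with 10, chr15:102901103-103056852 for *Hoxc* with 9 and chr2:74648310-74785142 for *Hoxd* with 9 (mm10). The map of the clusters shows where peaks fell.

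**Figure D1:**
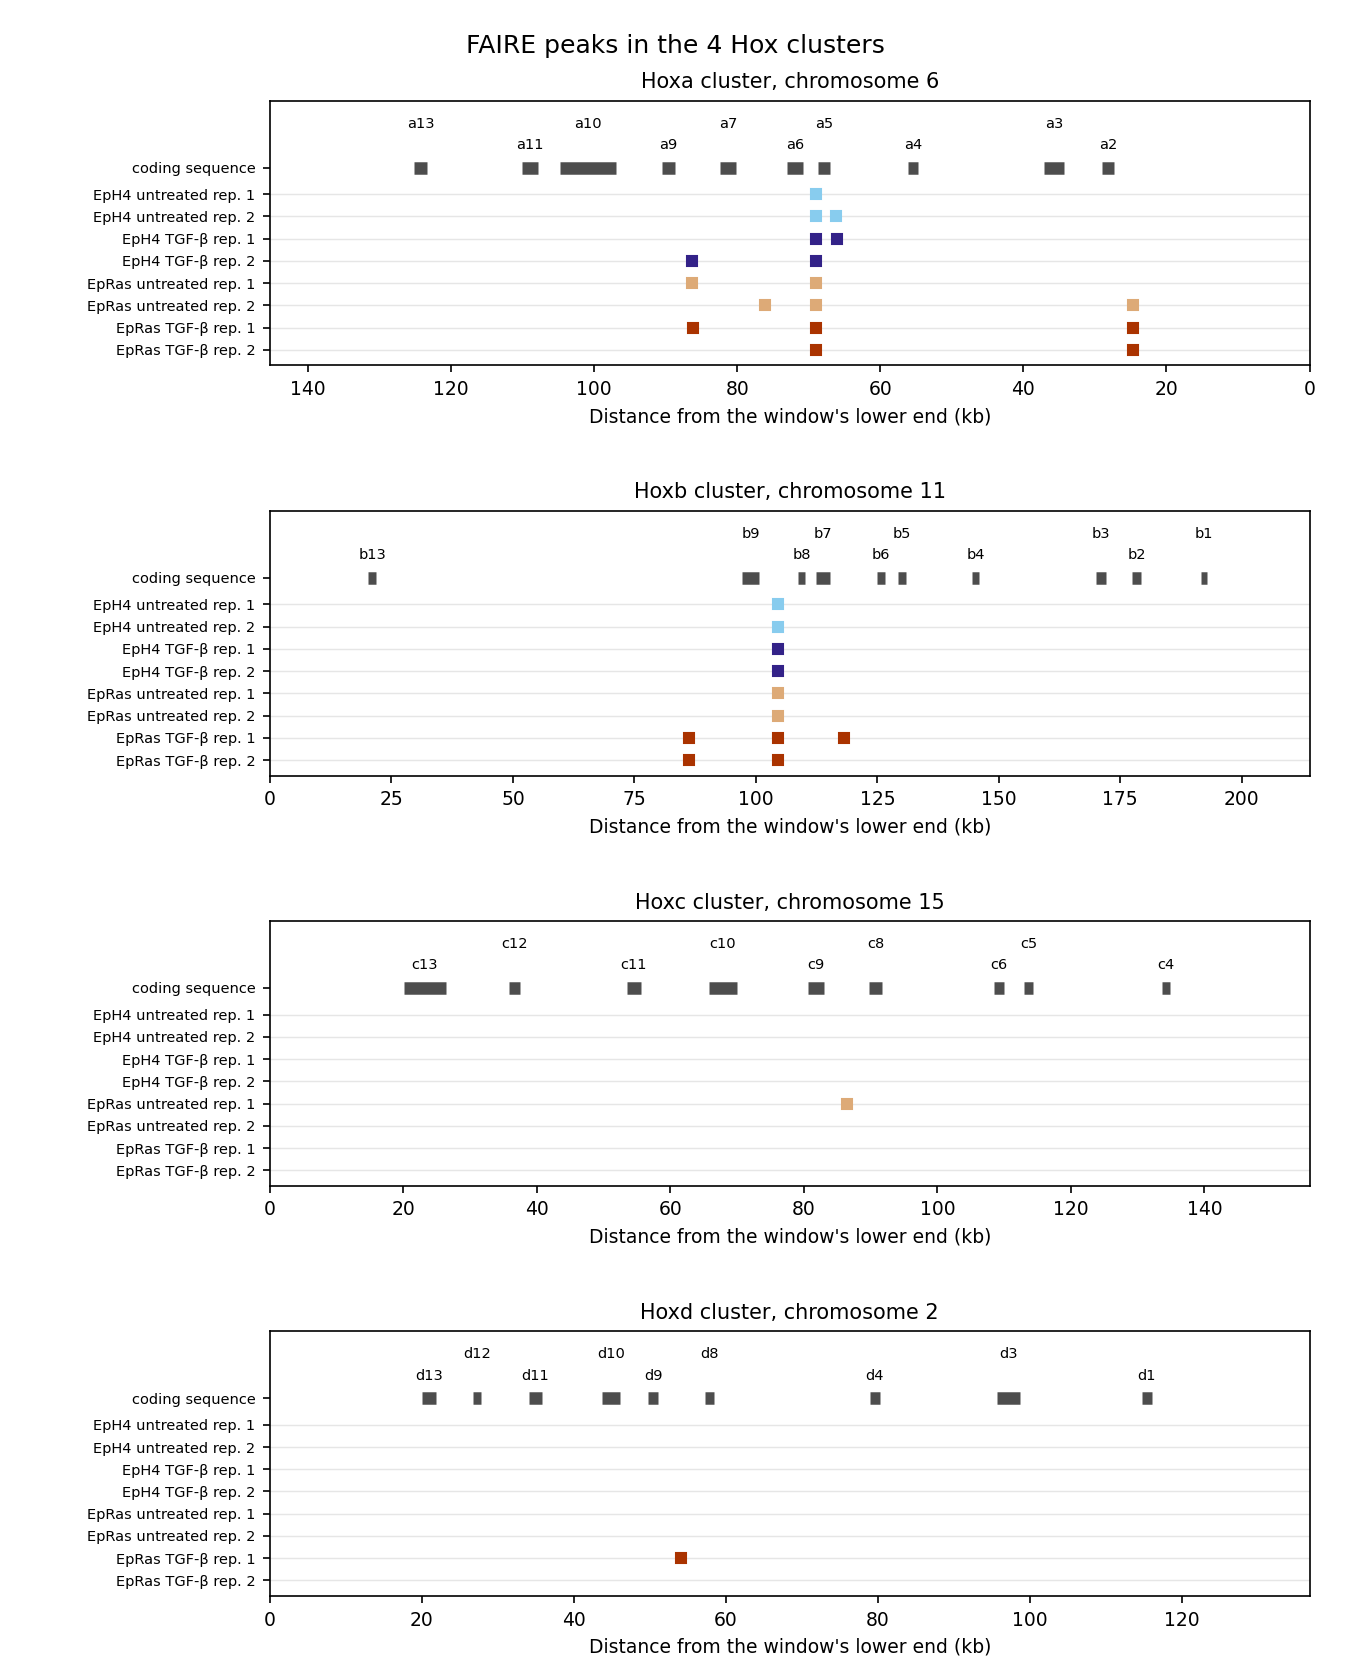
Position of the FAIRE peaks in 10 of the 11 regions (squares, 1 row per library, colored by group) and of coding sequences (grey bars) in the 4 *Hox* windows, in kb from the lower end of the window. Every cluster is drawn with paralog 13 on the left. Peaks stand at *Hoxa5* and between *Hoxb9* and *Hoxb8* in all 8 libraries, and *Hoxc* and *Hoxd* have 1 peak each.

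Accessible regions are shown here as sequence because so few were found that the result is a short list of places. The stretches are of the forward strand, 5′ to 3′, from GRCm38.p6, the build of mm10, without untranslated exons. Capitals mark letters that match a motif, as named below. The first 3 ranked highest by score in *Hoxb*, *Hoxc* and *Hoxd*, and *Hoxc* and *Hoxd* had no other. The *Gm53* intron region is chr11:96260359-96260636. The region between *Hoxc9* and *Hoxc8* is chr15:102987481-102987682, and the region between *Hoxd9* and *Hoxd8* is chr2:74702310-74702524.
*Gm53* intron: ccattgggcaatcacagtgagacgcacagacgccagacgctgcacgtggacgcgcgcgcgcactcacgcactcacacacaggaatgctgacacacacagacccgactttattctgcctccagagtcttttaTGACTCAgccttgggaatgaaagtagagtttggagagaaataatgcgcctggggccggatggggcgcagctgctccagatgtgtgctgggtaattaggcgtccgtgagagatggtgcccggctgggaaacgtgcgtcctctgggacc
*Hoxc9* to *Hoxc8*: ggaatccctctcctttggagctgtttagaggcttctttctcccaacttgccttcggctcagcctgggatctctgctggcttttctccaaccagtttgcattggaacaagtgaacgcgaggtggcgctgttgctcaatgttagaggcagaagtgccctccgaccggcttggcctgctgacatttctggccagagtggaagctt
*Hoxd9* to *Hoxd8*: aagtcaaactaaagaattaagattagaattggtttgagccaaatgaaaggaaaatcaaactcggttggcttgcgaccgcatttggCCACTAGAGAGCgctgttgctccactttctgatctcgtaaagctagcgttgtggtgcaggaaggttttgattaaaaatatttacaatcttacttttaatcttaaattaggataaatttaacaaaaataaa

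Another 3 were chosen after their values were seen. The *Hoxa5* start region (chr6:52204588-52204708 upstream of the first exon) and the region between *Hoxb9* and *Hoxb8* (chr11:96278818-96279097, intergenic) are shown because they were called in all 8 libraries. The *Hotairm1* intron region (chr6:52160117-52160366) is shown because its peaks were found in EpRas libraries and not in EpH4 libraries.
*Hoxa5* start: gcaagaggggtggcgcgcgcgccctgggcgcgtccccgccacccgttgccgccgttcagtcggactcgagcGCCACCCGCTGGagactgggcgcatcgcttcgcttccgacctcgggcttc
*Hoxb9* to *Hoxb8*: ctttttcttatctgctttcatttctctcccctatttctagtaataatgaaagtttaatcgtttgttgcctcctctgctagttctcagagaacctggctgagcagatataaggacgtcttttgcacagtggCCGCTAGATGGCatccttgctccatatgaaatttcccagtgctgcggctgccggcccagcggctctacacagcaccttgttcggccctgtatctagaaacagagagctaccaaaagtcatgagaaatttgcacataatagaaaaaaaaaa
*Hotairm1* intron: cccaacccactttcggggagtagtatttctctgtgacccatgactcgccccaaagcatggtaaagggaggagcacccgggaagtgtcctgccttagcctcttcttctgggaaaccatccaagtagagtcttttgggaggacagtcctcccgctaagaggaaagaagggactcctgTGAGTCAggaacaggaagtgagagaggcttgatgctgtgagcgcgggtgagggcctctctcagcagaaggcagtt

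The *Hoxa* cluster held most of the peaks. For replicates 1 and 2, the untreated EpH4 pair had 2 and 3 peaks there, the treated EpH4 pair 3 and 2, the untreated EpRas pair 3 and 3, and the treated EpRas pair 4 and 3, or 23 in all. The *Hoxb* cluster had 1 peak in each of the 6 other libraries, and 3 and 2 in the treated EpRas pair. *Hoxc* had 1 peak, in the first untreated EpRas library, and *Hoxd* had 1 peak, in the first TGF-β-treated EpRas library. Differences between the clusters were not tested.

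Summed over the clusters, the untreated EpH4 pair had 3 and 4 peaks, the treated EpH4 pair 4 and 3, the untreated EpRas pair 5 and 4, and the treated EpRas pair 8 and 5. The largest count came from the longest list. As a share of each library's peaks these were 0.0241% and 0.0306%, 0.0223% and 0.0277%, 0.0291% and 0.0290%, and 0.0293% and 0.0297% in the same order, and exact binomial 95% intervals of single libraries reached from as low as 0.00496% to as high as 0.0810%. These intervals cover counting error only. EpRas libraries were within a narrow range inside that of the EpH4 libraries.

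The share was 0.0293% ± 0.000315 (SD, n = 4) in EpRas and 0.0262% ± 0.00369 (SD, n = 4) in EpH4 libraries, a difference of 0.00309 percentage points (two-sided exact permutation test, p = 0.171, Benjamini-Hochberg adjusted p = 0.714 over 15 tests). It was 0.0273% ± 0.00340 with TGF-β and 0.0282% ± 0.00283 without (SD, n = 4, exact permutation test, p = 0.6, adjusted p = 1). The effect of TGF-β in EpRas minus that in EpH4 cells was 0.00274 points (exact permutation test, p = 0.556, where 0.0556 is the smallest possible). The difference between the lines was larger than the SD of the EpRas libraries and smaller than that of the EpH4 libraries. The difference between the treatments was smaller than either SD. With 4 against 4 libraries the smallest p is 0.0286. The sign of each comparison turned when every list was reduced to its 10821 highest-scored peaks, to -0.00231, 0.00231 and -0.00462 points respectively. In those lists the 1 peak of *Hoxc* alone gave 0.00231 points between the lines, so the turned signs rest on few peaks.

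**Figure D2:**
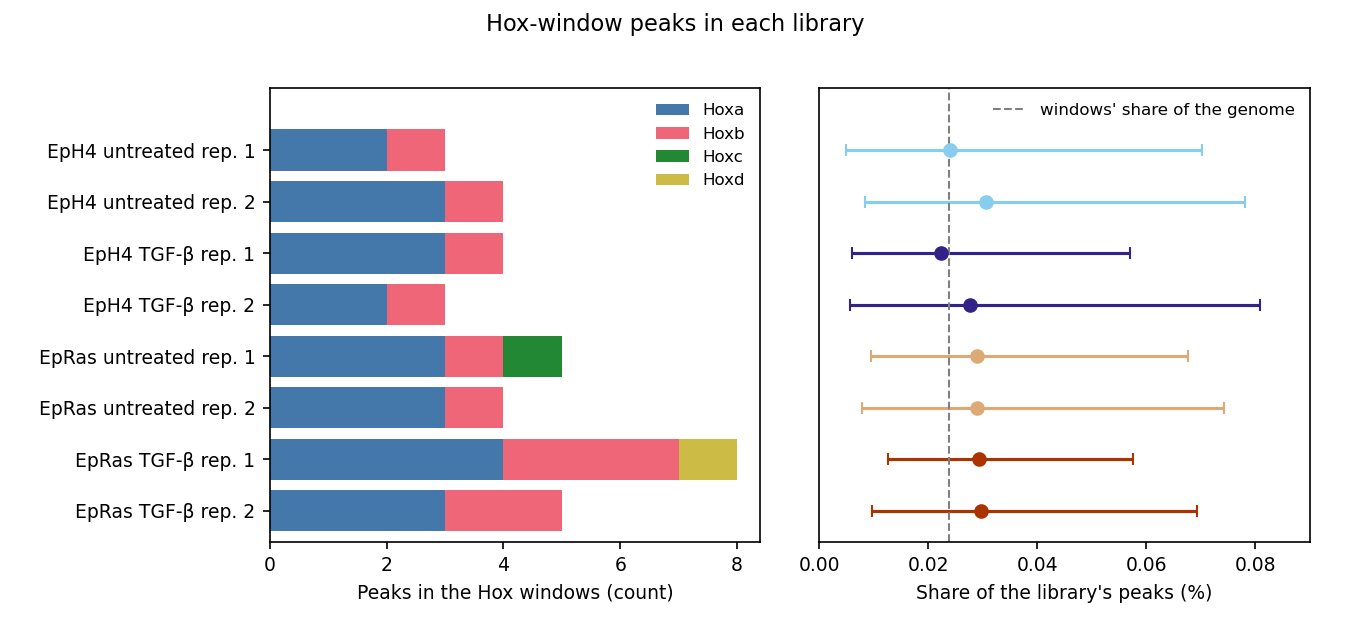
Peaks in the *Hox* windows of each library (left, bars stacked by cluster, counts from 0) and the same as a percentage of all peaks of the library with exact binomial 95% intervals (right, colored by group). The shares lie between 0.0223% and 0.0306%, and every interval includes the 0.0239% of the genome that the windows cover.

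The clusters were tested 1 by 1 as well. The *Hoxa* share was 0.0179% ± 0.00293 in EpRas and 0.0185% ± 0.00309 in EpH4 libraries (SD, n = 4, exact permutation test, p = 0.743, adjusted p = 1), a difference of -0.000633 points. It was -0.00924 points with lists of equal length (exact permutation test, p = 0.114, adjusted p = 0.571) and -0.0223 points with peaks scored at 15.51 or more (exact permutation test, p = 0.0286, the smallest possible, adjusted p = 0.214). Chromosome 6 as a whole held 4.26% ± 0.198 of peaks in EpRas and 6.43% ± 0.273 in EpH4 libraries (SD, n = 4), and as a share of the peaks of that chromosome the *Hoxa* difference was 0.134 points with the opposite sign (exact permutation test, p = 0.0571, adjusted p = 0.286). The *Hoxb* share was 0.00898% ± 0.00291 in EpRas and 0.00762% ± 0.00152 in EpH4 libraries (SD, n = 4, exact permutation test, p = 0.457, adjusted p = 0.980). It was 0.00942% ± 0.00278 with TGF-β and 0.00718% ± 0.000967 without (SD, n = 4, exact permutation test, p = 0.229, adjusted p = 0.714). For *Hoxa* the TGF-β difference was -0.00262 points (exact permutation test, p = 0.257, adjusted p = 0.714). *Hoxc* and *Hoxd* had 1 peak each, so p = 1 was the only outcome that both exact permutation tests could give. These tests decide nothing, though they count among the 15.

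The windows, which were drawn around genes, held 59.8 *Hox* genes per Mb, against 8.05 protein-coding genes per Mb of genome. Their peak density was 0.933 to 1.28 times that of the genome in the 8 libraries and above it in 7 of 8. The mean log2 ratio was 0.20 (exact sign-flip permutation test, p = 0.0234, adjusted p = 0.176), and it was -0.35 with lists of equal length and 0.61 in windows that ended at the outermost genes (exact sign-flip permutation test, adjusted p = 0.0586). A peak's score percentile is the percentage of peaks in its library that score lower. The 36 peaks had a median of 32.8 and a range of 0.718 to 90.8, and 22 of them were under 50. Of the 36, 16 came from the 2 regions called in every library.

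Start sites of *Hox* genes rarely had a peak. A promoter peak was a peak whose midpoint lay within 2 kb of any annotated start site of the gene. *Hox* genes with one numbered 2 and 2 in untreated EpH4 libraries, 2 and 1 in treated EpH4 libraries, 2 and 3 in untreated EpRas libraries, and 3 and 2 in treated EpRas libraries. In percent of the 39 genes these were 2.56 to 7.69, whereas 19.1 to 35.6% of all protein-coding genes had a promoter peak in the same libraries. The *Hox* share was lower in 8 of 8 libraries, by 20.6 points on average (exact sign-flip permutation test, p = 0.0078, the smallest possible with 8 libraries, adjusted p = 0.117). The flipped units were libraries of 2 related lines. This p thus concerns agreement between libraries and not how unusual 39 such genes are. The difference did not pass after adjustment for the 15 tests. Even the smallest possible p could not pass unless other tests also gave small p-values, so the adjusted p decides nothing here. The difference was -17.6 points with lists of equal length and -13.6 points with peaks scored at 15.51 or more.

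Over all libraries, 4 of 39 *Hox* genes had a promoter peak in 1 or more, against 42.5% of all protein-coding genes, and 1 of 39 had one in all 8, against 10.6%. Promoter composition was read beside these counts. In the 500 bp on either side of the start site, the median ratio of observed to expected CpG was 0.678 for *Hox* genes and 0.552 for all genes, and the median GC content was 57.4% and 54.7%. Among all genes, the share with a promoter peak in any library increased over quartiles of that ratio, from 9.50% through 28.5% and 61.6% to 70.3%. Of the *Hox* genes, 31 were in the upper 2 quartiles, and 3 of those 31 had a promoter peak. The part of composition in the *Hox* counts was not tested.

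**Figure D3:**
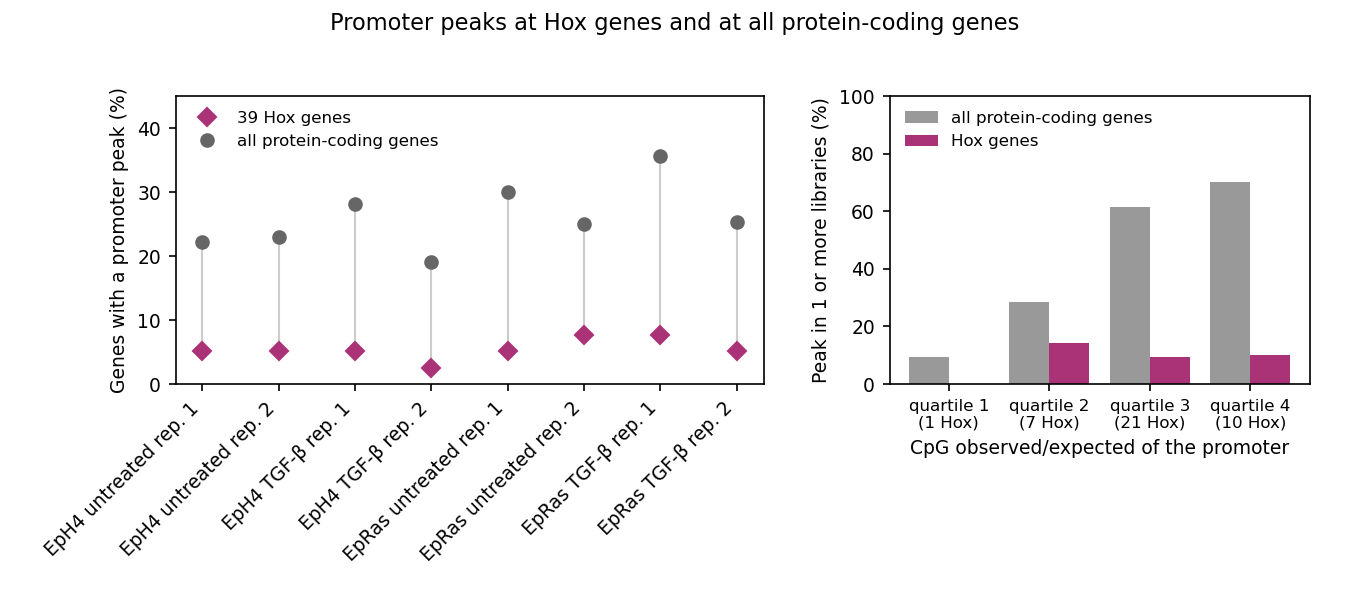
Share of genes with a promoter peak in each library for the 39 *Hox* genes (diamonds) and for all protein-coding genes (circles) on the left, and on the right the share with a peak in 1 or more libraries by quartile of promoter CpG ratio. *Hox* shares are 2.56 to 7.69% against 19.1 to 35.6%, and 2 of 21 and 1 of 10 *Hox* genes are called in the upper quartiles.

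By place in the cluster, promoter peaks were found for 2 of 12 anterior genes (paralogs 1 to 4), 2 of 11 central genes (paralogs 5 to 8) and 0 of 16 posterior genes (paralogs 9 to 13). These counts stand against 4 of 39 over all *Hox* genes and 42.5% of all protein-coding genes. Differences by place or cluster rest on few genes and were not tested. The genes with a promoter peak included *Hoxa3*, *Hoxa5* and *Hoxb6*. None of the 9 *Hoxc* and 9 *Hoxd* genes had a promoter peak. In *Hoxa*, the genes without included all of its posterior members, *Hoxa9*, *Hoxa10*, *Hoxa11* and *Hoxa13*. In *Hoxb* they were *Hoxb1* to *Hoxb5*, *Hoxb7*, *Hoxb8*, *Hoxb9* and *Hoxb13*. By 4 libraries against 4, 2.5 ± 0.577 *Hox* promoters were called in EpRas and 1.75 ± 0.5 in EpH4 libraries (SD, exact permutation test, p = 0.286, adjusted p = 0.714). That difference of 0.75 turned to -0.75 with lists of equal length and also with peaks scored at 15.51 or more. With TGF-β there were 2 ± 0.816 and without 2.25 ± 0.5 (SD, n = 4, exact permutation test, p = 1, adjusted p = 1).

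*Hoxa5*, whose product is known to restrain growth in mammary epithelium, was the *Hox* gene with a promoter peak in all 8 libraries. The merged region was chr6:52204382-52204734 and lay over the start of the gene, in its first exon and just upstream. Score percentiles in replicates 1 and 2 were 4.91 and 75.4 for the untreated EpH4 pair, 90.8 and 27.4 for the treated EpH4 pair, 32.8 and 19.5 for the untreated EpRas pair, and 27.6 and 8.03 for the treated EpRas pair. The replicates of EpH4 groups were thus far apart, and the groups overlapped. With lists of equal length, the region was called in 3 of 8.

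*Hotairm1* is a non-coding RNA gene at the 3′ end of the *Hoxa* cluster. The region in its intron was called in the second untreated EpRas library at percentile 15.0 and in both treated EpRas libraries at 29.3 and 43.6, and in no EpH4 library. Of all regions, 5.83% were called in 3 or 4 EpRas libraries and no EpH4 library, a count chosen after seeing this region. With lists of equal length it was called in 1 library. Under the rule for separation, which asks for all 4 libraries of a line, it did not qualify, but it did once the first untreated EpRas library was left out.

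Promoter calls in single libraries were made for *Hoxa3* and *Hoxb6*. *Hoxa3* had 1 peak, in the second untreated EpRas library, at chr6:52211606-52211805 and percentile 28.4. It lay 1.41 kb inside an upstream start site of *Hoxa3*, between the coding sequences of *Hoxa6* and *Hoxa7*, within *Hoxaas3* and a read-through gene. *Hoxb6* had 1 peak, in the first treated EpRas library, at chr11:96292296-96292495 and percentile 21.7, 81 bp upstream of a start site.

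Away from start sites, the region between *Hoxb9* and *Hoxb8* was called in all 8 libraries. It was intergenic and lay 2.95 kb upstream of *Hoxb8*. Percentiles in replicates 1 and 2 were 77.1 and 12.3 for the untreated EpH4 pair, 27.8 and 68.4 for the treated EpH4 pair, 8.74 and 86.0 for the untreated EpRas pair, and 14.6 and 61.2 for the treated EpRas pair. High and low values occurred in each group, so the groups overlapped. With equal lists it was called in 4 of 8 libraries. This region and the *Hoxa5* start made 2 of 11 *Hox* regions called in all libraries, against 11.4% of all regions, and 4 of 11 were called in 1 library, against 31.6%.

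**Figure D4:**
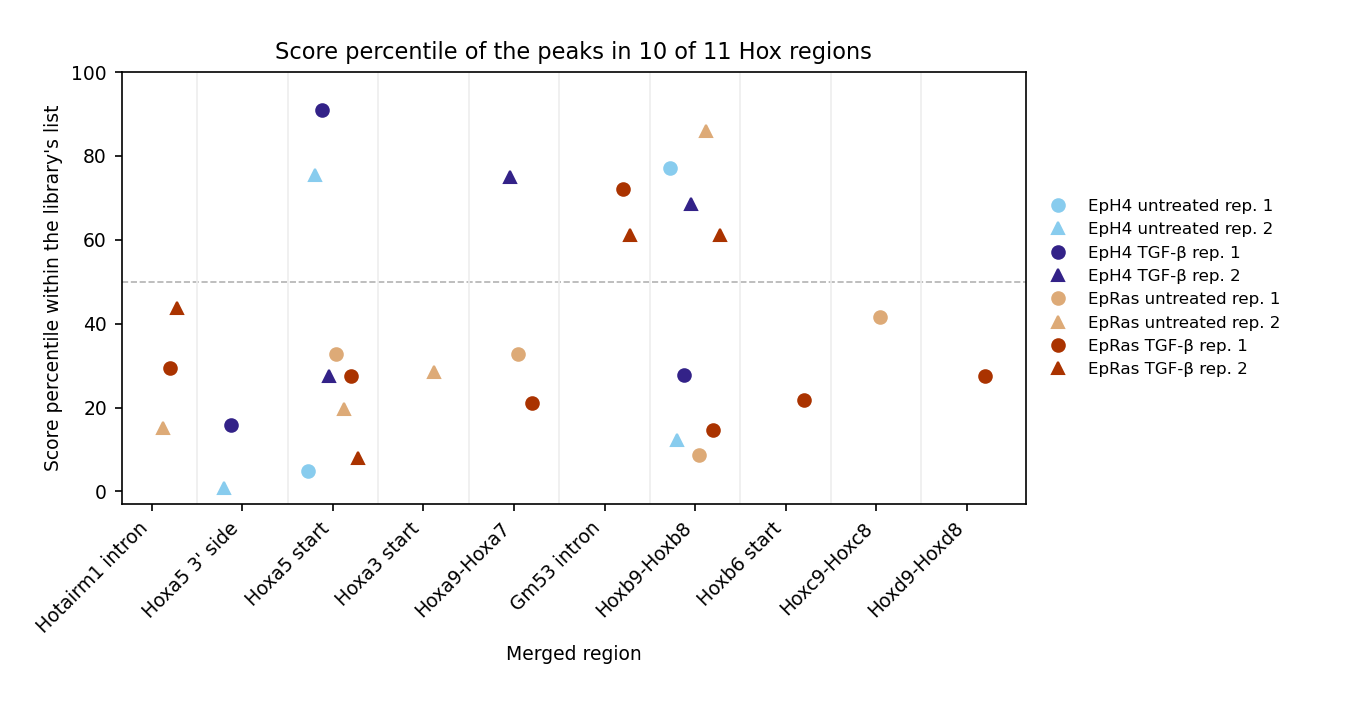
Score percentile of the peaks in 10 of the 11 *Hox* regions within the list of its own library (circles, replicate 1; triangles, replicate 2; colors, groups). The dashed line is at 50. Values at the *Hoxa5* start run from 4.91 to 90.8 and those between *Hoxb9* and *Hoxb8* from 8.74 to 86.0, with overlapping groups, and the *Gm53* intron has points from the 2 libraries of treated EpRas cells only.

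Each of the 4 clusters had 1 region in the interval between the coding sequences of paralog 9 and the next gene, paralog 8 or, in *Hoxa*, which has no paralog 8, paralog 7. This placement was noticed after the regions were known. In *Hoxa* the region was chr6:52221703-52221977, called in the second treated EpH4 library at percentile 74.9, in the first untreated EpRas library at 32.8 and in the first treated EpRas library at 21.0. It lay 3.13 kb upstream of the start of *Hoxa7* in the basic annotation, and at the start of a longer *Hoxa7* transcript in the comprehensive one. In *Hoxb* it was the region called in all 8 libraries. In *Hoxc* it lay 3.03 kb upstream of *Hoxc8*, in an intron of a long *Hoxc5* transcript, and was called in the first untreated EpRas library at percentile 41.5. In *Hoxd* it lay 2.20 kb upstream of *Hoxd8* and was called in the first treated EpRas library at 27.6.

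The *Gm53* intron region was called in the 2 libraries of EpRas cells given TGF-β and in no other, and was the 1 *Hox* region of this kind. Its percentiles were 72.1 and 61.2, and its mean of 66.6 was the highest in any of the clusters. Of all regions, 4.21% had this pattern. It lay in the long gap between *Hoxb13* and *Hoxb9*, 1.11 kb upstream of a start site of *Gm53*, a non-coding gene, 10.96 kb upstream of *Hoxb9* and 4.67 kb before the microRNA gene *Mir196a-1*, whose product targets *Hox* transcripts. It was called in the same 2 libraries with equal lists. The first of these libraries had the longest list of all, with 27337 peaks.

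A region near the 3′ end of *Hoxa5* (chr6:52201600-52201818, 2.88 kb downstream of the start site) was called in 2 EpH4 libraries, the second untreated at percentile 0.718 and the first treated at 15.9, and in no EpRas library. With equal lists it was called in 0 libraries.

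No *Hox* region separated the lines or the treatments. In the whole series, 1.98% of regions were called in all EpRas and no EpH4 libraries, 0.752% in all EpH4 and no EpRas libraries, 0.32% in all TGF-β and no untreated libraries, and 0.0188% in all untreated and no TGF-β libraries. With 11 regions, counts of 0 are close to what those shares give.

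Sequences of the 11 regions were compared with those of all regions over the 300 bp around their midpoints. Median GC content was 54% against 49%, and the median CpG ratio was 0.698 against 0.267. The AP1 motif TGANTCA was in 3 of 11 *Hox* regions and in 41.5% of all regions. The 3 were the *Hotairm1* intron (chr6:52160292-52160298), the region near the 3′ end of *Hoxa5* (chr6:52201646-52201652) and the *Gm53* intron (chr11:96260490-96260496). They are also the 3 regions called in 2 or more libraries of 1 line and none of the other, 2 of them in EpRas and 1 in EpH4, which was seen only after the search. Of all regions with these patterns, 48.5% of the EpRas ones and 40.8% of the EpH4 ones held the motif. AP1 is a dimer of Fos and Jun proteins.

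The motif of HOX-PBX dimers, TGATNNAT, was in 3 of 11 *Hox* regions and 13.8% of all regions. PBX proteins are cofactors that bind DNA together with HOX proteins. The ETS motif CCGGAAG was in 1 of 11 against 6.59%, the RUNX motif TGTGGTT in 0 against 11.5%, and the E-box CAGGTG in 0 against 18.4%. All motifs were searched on both strands, and a match is not a bound site.

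The core motif of CTCF was in 0 of 11 *Hox* regions and 6.23% of all regions in a strict form. A looser form of 12 positions with at most 1 mismatch was chosen after these sequences had been seen. Besides the mismatch, it took G as well as A at 1 position of the strict form and added a final C. This form was in 4 of 11 *Hox* regions and 16.2% of all regions. The 4 were the *Hoxa5* start (chr6:52204659-52204670) and, of the regions next to paralog 9, those of *Hoxa* (chr6:52221809-52221820), *Hoxb* (chr11:96278948-96278959, with all 12 positions matched) and *Hoxd* (chr2:74702395-74702406). That of *Hoxc* matched 10. These matches are in capitals in the sequences shown.

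Of 49 non-coding genes in the windows, 7 had a promoter peak in 1 or more libraries, against 10.5% of all non-coding genes, and these 7 shared 4 regions. *Evx2*, a homeobox gene beside *Hoxd13*, had none. In the 20 to 50 kb beyond the windows there were 2 further regions, both next to *Hoxb*, at chr11:96413559-96413997 in all 8 libraries and at chr11:96391872-96392098 in 1.

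Genes that work with or on *Hox* genes were read in the same way. Of 9 genes for HOX cofactors, 5 had a promoter peak in 1 or more libraries, near the 42.5% of all protein-coding genes. *Meis1*, a homeodomain partner of HOX proteins, had one in 7 of 8 and *Pknox1* in 6. *Pbx3* had one in 4 EpH4 and 1 EpRas libraries, and *Meis2* in 0 EpH4 and 2 EpRas libraries. The 6 ParaHox genes, the evolutionary sisters of the *Hox* genes, had 0 against the same 42.5%.

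Of 14 Polycomb genes, 12 had a promoter peak in 1 or more libraries and 3 in all 8, against 42.5% and 10.6% of all protein-coding genes. The 3 were *Suz12*, a subunit of the complex that methylates histone H3, and *Cbx2* and *Cbx8*, readers of that mark. Of 8 trithorax and related genes, 7 had one in 1 or more libraries and 2 in all 8, against the same 42.5% and 10.6%. The 2 were *Kmt2b*, a histone methyltransferase, and *Men1*, its partner. No gene of these lists separated the lines. The lists describe promoters and say nothing of protein levels.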

How the data were processed

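FAIRE-seq was performed with EpH4 and EpRas cells, 2 libraries per group. Per the methods of the study, the authors mapped trimmed reads to mm10 with bowtie2 and called peaks in each library with MACS2 (2.0.9 in the processing notes). The deposited lists gave a position and a score per peak. What the score measures was not given in the sources used here. It served to rank peaks and, as an alternative, to filter all lists at 15.51. Median scores of the libraries ran from 13.34 to 18.14, so that filter kept unlike parts of the lists. The lists held no counts, so depth was unknown.

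Annotation was GENCODE vM21 (basic) and sequence GRCm38.p6. Positions are 1-based. Shares and promoter counts were compared by two-sided exact permutation tests (numpy 2.4.6), with Benjamini-Hochberg adjustment over 15 tests and a threshold of 0.05. Scripts were tested on simulated lists. Of the peaks, 18 lay on sequences other than the main chromosomes. Every *Hox* gene was counted, and values were given for those with a promoter peak. Sequences were those of the region with the highest mean percentile in each cluster, with further ones named as chosen later. Some items picked by these rules are not reported here. The members and lists were chosen with earlier results of these data known. Alternatives were lists of equal length (10821 peaks), peaks scored at 15.51 or more, other windows and distances, and leaving out each library.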

Additional observations from a re-analysis of the deposited data

Results flagged for a closer look

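In each set of 4 libraries (a line or a treatment), the highest and the lowest value were compared with the nearest of the others by Dixon's ratio, in 24 sets, and 6 values stood apart. For untied values chance gives about 1 in 20, but in each of the 6 the other 3 values were tied, where any single differing count stands apart and that rate does not apply. The *Hoxc* share of peaks was 0.00581% in the first untreated EpRas library and 0 in the other EpRas and in the other untreated libraries, which counts as 2 of the 6. The *Hoxd* share was 0.00366% in the first TGF-β-treated EpRas library and 0 in the other EpRas and in the other treated libraries, which counts as another 2. Each rests on 1 peak. The number of *Hox* promoters called was 1 in the second treated EpH4 library, against 2 in the other EpH4 libraries, and 3 in the second untreated EpRas library, against 2 in the other untreated libraries.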

How the results depend on the processing

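At least 9 of the 15 tests would have to reach p = 0.0286, the smallest of a 4 against 4 exact permutation test, before such a p could pass 0.05 after adjustment, so the lack of calls says nothing about stability. With lists of equal length, the *Hox* share of EpRas minus EpH4 libraries was -0.00231 points, that of TGF-β minus untreated 0.00231, the difference of TGF-β effects -0.00462, the number of *Hox* promoters in EpRas minus EpH4 -0.75, and the log2 density ratio -0.35. With peaks scored at 15.51 or more they were -0.0230, 0.00148 and, for promoters and density, -0.75 and -0.051, and *Hoxb* in EpRas minus EpH4 was -0.000711. All of these have the sign opposite to the full lists. So have the *Hoxa* difference between lines as a share of chromosome 6 (0.134 points) and the promoter difference with TGF-β within 1 kb (0.25). With lists of equal length, the 1 *Hoxc* peak gave 0.00231 points towards EpRas, against the turned sign. A single peak so weighed as much as the turned difference between the lines. The turned signs of the *Hox* share in those lists thus rest on few peaks. The causes were not tested.

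Leaving out each library in turn gave ranges of -0.00229 to 0.000723 points for TGF-β minus untreated, -0.000497 to 0.00598 for the difference of TGF-β effects, -0.00192 to 0.000824 for *Hoxa* between lines and -0.583 to 0.0833 promoters for TGF-β. The sign turned without the first treated EpH4 library, without the second untreated EpH4 library (in both of the next), without the first treated EpRas library (*Hoxa*) and without the second treated EpH4 library. *Hox* regions separating the lines numbered 0 to 1. Of the tested values that did not turn, 88 from other settings and 110 with a library left out kept their sign, and 8 and 5 were 0. By definition no other outcome was possible for these values, so their number says nothing about stability. Settings that only permuted labels in another way left the value itself unchanged. Region counts had no test.

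Start sites of the comprehensive annotation, added after the data were seen, gave *Hoxa7* a promoter peak in 3 libraries and a *Hox* share 21.3 points below that of all genes. Replicate numbers did not pair the libraries, as 6 correlations of deviations from group means ran from -0.055 to 0.00216. In the replicate block, which permuted labels within replicate numbers, the *Hox* share of EpRas minus EpH4 libraries was 0.00309 points (exact permutation test, p = 0.167), p-values of the 12 comparisons ran from 0.111 to 1.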
